A study of Homo sapiens with 4 samples.

Results

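The genes described here are the EGF receptor family and its ligands in nasopharyngeal carcinoma cells kept with caffeic acid phenethyl ester (CAPE) or with solvent. They were taken by name as EGFR, ERBB2, ERBB3, HBEGF, AREG, EREG, TGFA, BTC, EPGN and NRG1. Of these 10 genes, 9 had a probe set with a single gene symbol, out of 18323 such genes on the array, and 8 passed the filter on dim probe sets, out of 15194. EPGN was measured but lay under the filter, and AREG was not analysed here. The study hybridised RNA of the lines HK1 and HK1EBV to 4 arrays of 1 colour, so that every one of its 4 groups had 1 array: HK1 with 0.1% DMSO, HK1 with 110 µM CAPE, HK1EBV with 0.1% DMSO and HK1EBV with 110 µM CAPE, each for 24 h. Both lines derive from nasopharyngeal carcinoma and grew in medium with serum; by its name HK1EBV is the Epstein-Barr virus carrying form of HK1, about which the labels add nothing. CAPE is a phenolic compound from propolis that is used to inhibit NF-κB, and DMSO is the solvent.

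The EGF receptor family consists of receptor tyrosine kinases that pair on binding a ligand and switch on the RAS-ERK and PI3K-AKT pathways. The ligands are made as membrane proteins and released by sheddases such as ADAM17, and several of them are induced by the signalling they start. In squamous epithelium and its carcinomas, EGFR and its ligands form a loop that drives growth, and ERK signalling also induces inhibitors, such as the Sprouty proteins and DUSP6, that feed back on it.

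All values are log2 values as deposited, so a difference of 1 is a change of 2-fold. No group had a replicate, so differences between 2 arrays are given as values. The mean CAPE change over both lines, and the mean difference between the lines over both treatments, were tested with limma on all genes. With 4 arrays and terms for line and CAPE, a gene's only residual was the difference of its CAPE change between the lines. The SE and p-values of both tests rest on this difference, moderated by limma over all genes. They do not measure spread between replicates. A gene with the same CAPE change in both lines left no residual. Whether the arrays stem from separate cultures is not stated, so differences between arrays may be technical. The number of 4 arrays limits the precision of every value. Array medians lay between 2.23 and 2.27. Of 9 epithelial and keratinocyte markers 7 were measured, with mean levels from 2.57 to 9.83, their summed level between 46.5 and 49.0 on the 4 arrays. Of 6 fibroblast markers, with a summed level between 10.3 and 11.1, DCN and LUM were under the filter. COL1A1, COL1A2, COL3A1 and PDGFRB passed it, with mean levels from 1.49 to 3.52. For 3 leukocyte markers the summed level was between 3.13 and 3.52. PTPRC and CD3E were under the filter, and CD14 passed it at a mean of 2.18. For 3 endothelial markers the summed level was between 3.30 and 3.76, with PECAM1 under the filter and CDH5 and VWF above it.

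The receptor genes differed little between the arrays. EGFR, the receptor of most ligands named here, stood at 9.45 in HK1 with DMSO, 9.68 in HK1 with CAPE, 9.38 in HK1EBV with DMSO and 9.29 in HK1EBV with CAPE. Its CAPE difference was 0.23 in HK1 and -0.09 in HK1EBV, a mean of 0.07 ± 0.13 (moderated SE of limma, n = 2 lines). ERBB2, the receptor with no ligand of its own that serves as partner of the others, stood at 3.85 and 3.96 in HK1 and at 3.52 on both HK1EBV arrays. Both HK1EBV arrays were thus below both HK1 arrays, by 0.33 with DMSO and 0.44 with CAPE on the log2 scale, and the mean of -0.38 ± 0.11 (moderated SE, n = 2 treatments) did not pass the test (limma adjusted p = 0.142). ERBB3, the neuregulin receptor with little kinase activity, was lowest in HK1 with DMSO at 3.14, and stood at 3.46 in HK1 with CAPE, 3.46 in HK1EBV with DMSO and 3.60 in HK1EBV with CAPE. For the CAPE change the limma adjusted p of the 3 receptors lay at 0.840 for EGFR, 0.854 for ERBB2 and 0.370 for ERBB3.

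**Figure D1:**
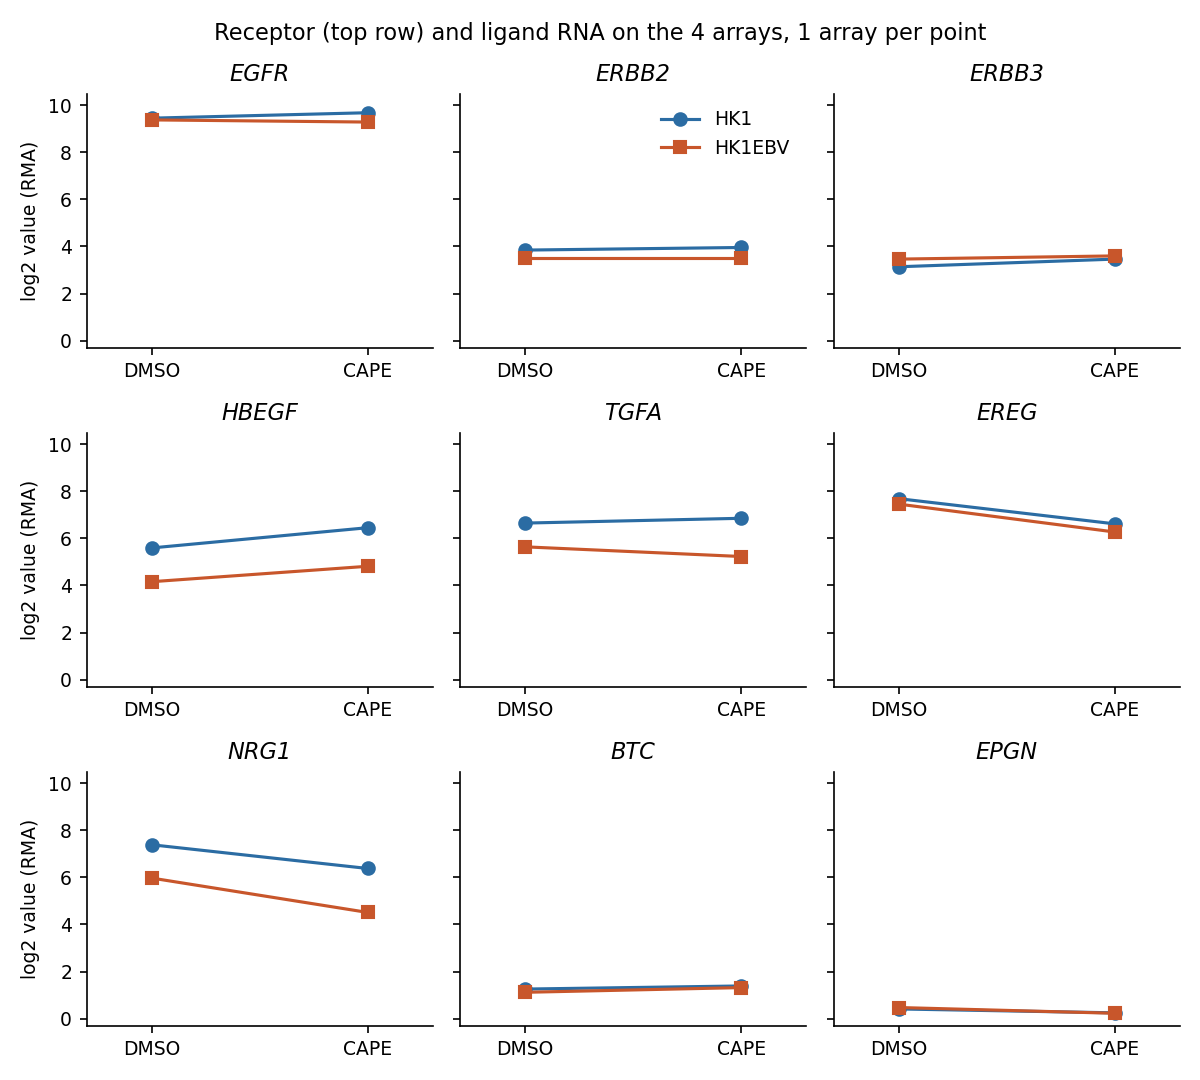
Log2 values (vertical axis) of 3 receptor genes and 6 ligand genes with DMSO and CAPE (horizontal axis), 1 array per point, with circles for HK1 and squares for HK1EBV. EREG and NRG1 slope down with CAPE in both lines, and the HK1EBV squares of HBEGF, TGFA and NRG1 lie below the HK1 circles. Levels are not comparable between genes.

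Of the ligand genes, EREG and NRG1 were lower and HBEGF higher with CAPE in both lines, by more than any receptor gene differed, while TGFA and BTC differed less. None of these CAPE differences passed the main test, given after them. EREG, which encodes epiregulin, a ligand of EGFR and ERBB4, stood at 7.69 in HK1 and 7.46 in HK1EBV with DMSO, and at 6.62 and 6.27 with CAPE. Both CAPE arrays lay below both DMSO arrays, by 1.07 within HK1 and 1.19 within HK1EBV. The mean difference was -1.13 ± 0.11 (moderated SE, n = 2 lines), or 2.19-fold, at percentile 0.240 of the genes tested. In such bulk RNA, fewer cells with the transcript and less of it per cell cannot be told apart.

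NRG1, which encodes neuregulin 1, the ligand of ERBB3 and ERBB4, stood at 7.39 in HK1 with DMSO, 6.38 in HK1 with CAPE, 5.97 in HK1EBV with DMSO and 4.51 in HK1EBV with CAPE. Within each line the CAPE array was the lower one, but HK1 with CAPE still exceeded HK1EBV with DMSO. The CAPE differences of -1.01 and -1.46 gave a mean of -1.24 ± 0.15 (moderated SE, n = 2 lines), or 2.35-fold. The probe set is tied in the annotation to 1 sequence record, which is 0 of the RefSeq transcripts of NRG1, so the isoforms it reads are not known here.

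HBEGF, the heparin-binding ligand of EGFR and ERBB4, went the other way. It stood at 5.59 with DMSO and 6.46 with CAPE in HK1, and at 4.16 and 4.82 in HK1EBV. The CAPE array was higher in both lines, by 0.86 and 0.66, a mean of 0.76 ± 0.12 (moderated SE, n = 2 lines), or 1.69-fold, at percentile 98.9 of the genes tested.

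TGFA, the gene of transforming growth factor alpha, was higher with CAPE by 0.20 in HK1 and differed by -0.41 in HK1EBV. BTC, the gene of betacellulin, stood between 1.12 and 1.39 on the 4 arrays, with CAPE differences of 0.13 and 0.20. EPGN, which encodes epigen, stood between 0.23 and 0.47 and was not tested.

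In the test of the CAPE change over both lines, 0 of the 8 members passed at an adjusted p under 0.05 (limma with Benjamini-Hochberg adjustment), and 3 had an unadjusted p under 0.05. Of all genes 0.00658% were called, which is 1 gene, CYP1B1, with 2968 at an unadjusted p under 0.05. The adjusted p was 0.0672 for EREG, 0.0672 for NRG1 and 0.0838 for HBEGF. With 57 genes left out whose residual was exactly 0, all 3 passed, at a limma adjusted p of 0.000932 for EREG, 0.00106 for NRG1 and 0.00735 for HBEGF. In that setting 8.21% of all genes were called (1243 of 15137), 4.07% higher and 4.14% lower, and of the 8 members 1 was higher and 2 were lower. Over all alternatives the adjusted p ran from 0.000932 to 0.437 for EREG, from 0.00106 to 0.754 for NRG1 and from 0.00735 to 0.860 for HBEGF. Shifting the arrays to one median called 482 genes higher and 524 lower, and quantile normalization 359 and 396.

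By size alone, EREG and NRG1 were at least 2-fold lower with CAPE in both lines, as were 31 of all genes tested (0.204%). In HK1 0.684% and in HK1EBV 0.533% of all genes were at least 2-fold lower, and 2 of the 8 members in each. At least 2-fold higher were 0 of the 8 members in either line, against 0.671% and 0.691% of all genes. The median CAPE change of the 8 members was 0.06, and that of all genes 0.01.

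**Figure D2:**
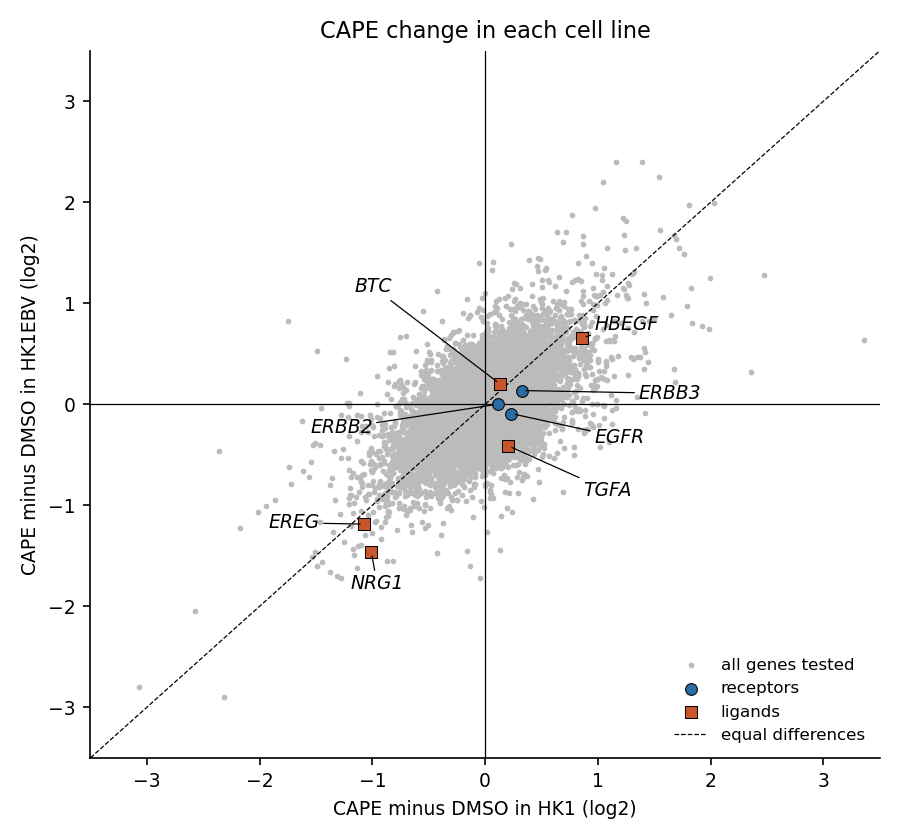
CAPE minus DMSO in HK1 (horizontal axis, log2) against the same in HK1EBV (vertical axis, log2) for all 15194 genes tested (grey), with receptors as circles and ligands as squares. EREG and NRG1 lie at the lower left and HBEGF at the upper right, with the receptors and BTC near 0 and TGFA on opposite sides of 0 in the lines.

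EREG and HBEGF are shown with the 250 bases before their start (GRCh38.p14). Among the measured ligand genes whose promoters were used here, they had the largest mean CAPE differences below and above 0. Promoters of NRG1 and ERBB3 were not used, although the mean CAPE difference of NRG1, at -1.24, was larger in size than that of EREG, at -1.13. EREG lies on the plus strand at chr4:74364895-74365144, and HBEGF on the minus strand at chr5:140346604-140346853. Capitals mark matches to 5 motifs searched on both strands.
EREG: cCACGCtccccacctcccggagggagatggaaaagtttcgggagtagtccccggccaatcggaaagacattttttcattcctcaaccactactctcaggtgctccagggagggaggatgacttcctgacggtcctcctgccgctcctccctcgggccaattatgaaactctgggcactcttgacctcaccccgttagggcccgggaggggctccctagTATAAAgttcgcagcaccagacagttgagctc
HBEGF: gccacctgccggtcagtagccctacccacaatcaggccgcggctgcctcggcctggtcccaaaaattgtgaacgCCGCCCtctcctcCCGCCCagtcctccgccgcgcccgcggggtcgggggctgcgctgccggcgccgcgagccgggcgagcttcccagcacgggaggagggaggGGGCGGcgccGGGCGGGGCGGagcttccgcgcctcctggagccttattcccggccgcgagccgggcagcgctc
The EREG window held a TATA box (TATAAA) 32 bases before the start, a motif in 10.7% of 35116 promoters of this length. It also held the core of the xenobiotic response element (GCGTG), read on the opposite strand, which 32.2% of promoters hold. The HBEGF window held 5 GC boxes (GGGCGG), 3 of them on the strand of the gene and 2 overlapping by 1 base, a motif in 42.6% of promoters. Its GC content was 76.4%, that of EREG 58.0%, and the median of all promoters 58.0%. Neither window held the AP-1 motif TGANTCA (6.57% of promoters) or the antioxidant response element TGACNNNGC (10.9%), a motif that can overlap with AP-1. Of the 10 member promoters used, of 8 of the genes named here, 2 held the AP-1 motif, in EGFR and ERBB2, and 0 the antioxidant response element. These matches describe letters and not sites in use.

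HK1EBV was then compared with HK1. HBEGF, TGFA and NRG1 were lower in HK1EBV under both treatments, while the receptor genes, EREG and BTC differed by less. For all 3 ligand genes both HK1EBV arrays lay below both HK1 arrays. HBEGF differed by -1.43 with DMSO and -1.64 with CAPE, a mean of -1.54 ± 0.12 (moderated SE, n = 2 treatments), or 2.90-fold (limma adjusted p = 0.0222). NRG1 differed by -1.42 and -1.87, a mean of -1.64 ± 0.15 (moderated SE, n = 2 treatments), or 3.12-fold (limma adjusted p = 0.0274).

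TGFA stood at 6.65 and 6.85 in HK1 and at 5.64 and 5.23 in HK1EBV, with DMSO and CAPE in this order. The differences of -1.01 and -1.62 gave a mean of -1.32 ± 0.18 (moderated SE, n = 2 treatments), or 2.49-fold (limma adjusted p = 0.0451). So 3 of the 8 members were called, all lower, where 2.9% of all genes were called, 1.32% higher and 1.58% lower. The members were chosen with earlier results of these data known, so this count is descriptive only. The 5 other members had an adjusted p between 0.142 for ERBB2 and 0.651 for BTC, with EGFR at -0.23 and EREG at -0.29 on average.

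With the genes of zero residual left out, 11.6% of all genes were called, 6.26% higher and 5.34% lower, with the same 3 members lower. The 3 calls were lost without the filter on dim probe sets and without the treatment as a term, settings that called 0 of all genes, with 3519 and 2000 at an unadjusted p under 0.05. Over all alternatives the adjusted p ran from 6.82e-05 to 0.277 for HBEGF, from 8.25e-05 to 0.380 for NRG1 and from 0.000626 to 0.171 for TGFA. All genes called divided into 200 higher and 240 lower in HK1EBV, and with the arrays shifted to one median into 865 and 661. By size alone HBEGF, NRG1 and TGFA were at least 2-fold lower under both treatments, as were 0.546% of all genes.

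**Figure D3:**
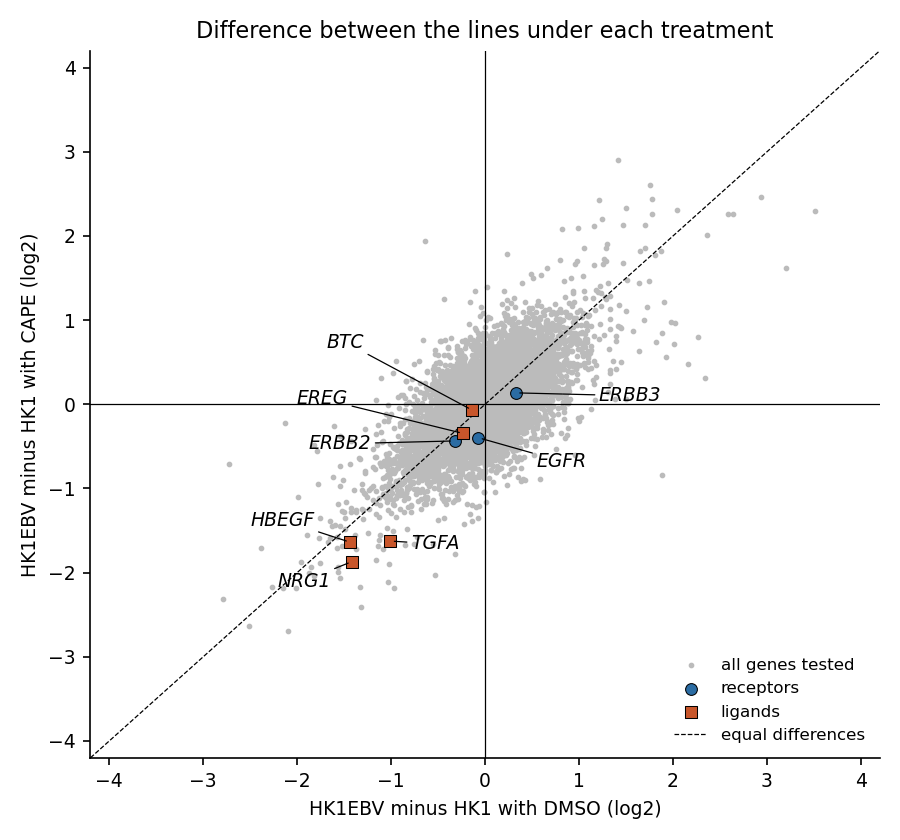
HK1EBV minus HK1 with DMSO (horizontal axis, log2) against the same with CAPE (vertical axis, log2) for all 15194 genes tested (grey), with receptors as circles and ligands as squares. HBEGF, NRG1 and TGFA lie at the lower left, at least 1 below 0 on both axes, apart from the other members.

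For NRG1 and HBEGF the highest and the lowest array differed in both treatment and line. NRG1, lower with CAPE and lower in HK1EBV, had the widest range of the members, 2.88 between HK1 with DMSO and HK1EBV with CAPE. HBEGF, higher with CAPE and lower in HK1EBV, ranged over 2.30, between HK1 with CAPE and HK1EBV with DMSO. The CAPE change differed between the lines by -0.61 for TGFA, -0.45 for NRG1 and -0.32 for EGFR (HK1EBV minus HK1), which could not be tested. Over all genes the size of this difference had a median of 0.19 and a 95th percentile of 0.63, so TGFA lay just inside the latter. Past 2-fold in this direction were 0.428% of all genes and 0 members.

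The genes most like NRG1 over the 4 arrays, by the Euclidean distance of profiles centred on their own mean, were THBS1, NRP2 and TGFB2, at distances of 0.30, 0.48 and 0.50. THBS1, which encodes the matrix protein thrombospondin 1, had CAPE differences of -1.13 and -1.62 and line differences of -1.13 and -1.62. NRP2, a receptor of semaphorins and VEGF, had CAPE differences of -1.06 and -0.92. TGFB2, the gene of a transforming growth factor beta, had -1.10 and -1.39. The genes most like HBEGF were PRSS8, IL20RB and PLAU, at distances of 0.19, 0.22 and 0.23. PRSS8, a membrane serine protease gene, was higher with CAPE by 0.64 and 0.68 and differed between the lines by -1.67 and -1.64. IL20RB, a cytokine receptor subunit, was higher with CAPE by 0.81 and 0.74.

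Neighbouring genes were set beside the members, 3 tested genes on each side in RefSeq order. EGFR lies next to LANCL2 and VOPP1 on chromosome 7, which were lower in HK1EBV by a mean of -2.10 and -1.82 (limma adjusted p = 0.0164 for both), while EGFR differed by -0.23. The next gene on that side, FKBP9P1, was lower by a mean of -0.82 (limma adjusted p = 0.0482), and the 3 genes before EGFR had mean line differences between -0.14 and 0.10. These neighbours were named after their values were seen. The 6 neighbours of HBEGF had mean line differences between -0.41 and 0.22, those of TGFA between -0.85 and 0.15, and those of NRG1 between -0.81 and -0.11. The lowest of them, FAM136A beside TGFA and MAK16 beside NRG1, passed the test (limma adjusted p = 0.0444 and 0.0453), and beside none of the 3 ligand genes did a neighbour reach a mean of -1. EPGN, EREG, AREG and BTC lie in this order on chromosome 4. The neighbours of EREG there, BTC and MTHFD2L among them, had mean CAPE changes between -0.17 and 0.45, against -1.13 for EREG.

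For the related lists below, counts are also given with the genes of zero residual left out. In that setting 8.21% of all genes passed for CAPE and 11.6% for the line, the latter 6.26% higher and 5.34% lower. In the main test of the line 1.32% were higher and 1.58% lower. The lists were chosen with earlier results of these data known, so their counts beside these shares are descriptive only. Of the other receptor and ligand genes of the family, 0 of 4 tested passed in either comparison, in both settings. EGF stood between 0.40 and 0.63 and was under the filter. ERBB4, the remaining receptor, stood between 0.90 and 1.19. NRG2 and NRG3 differed by at most 0.20 with CAPE in size, and NRG4 by 0.84 in HK1 and -0.07 in HK1EBV.

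Of 10 tested genes of ligand shedding, 0 passed for CAPE or for the line (limma adjusted p), with a median CAPE change of 0.02. Without the genes of zero residual 1 was higher with CAPE, ADAM17, and 1 lower in HK1EBV, ADAM9. ADAM17, the main sheddase of HBEGF, TGFA and EREG, had the largest CAPE difference, 0.45 and 0.69 (limma adjusted p = 0.110, or 0.0260 without the genes of zero residual). ADAM9 had line differences of -0.51 with DMSO and -0.43 with CAPE (limma adjusted p of their mean = 0.0963, or 0.0405 without the genes of zero residual). Its CAPE differences were -0.26 in HK1 and -0.17 in HK1EBV. The inactive rhomboid genes RHBDF1 and RHBDF2, whose proteins carry ADAM17 to the surface, were at 0.22 and 0.25 and at -0.06 and -0.45.

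Of 21 tested adaptors and kinases below the receptors, 0 passed for CAPE and 1 was higher in HK1EBV, GAB1, a docking protein of PI3K signalling, by a mean of 0.72 (limma adjusted p = 0.0495). This call ended under the trended variance prior (limma adjusted p = 0.0534). Its CAPE differences were 0.45 and 0.54, and without the genes of zero residual it was the 1 gene of the list that passed for CAPE, while 2 were higher and 1 lower in HK1EBV. For CAPE, GAB1 passed in this setting alone. GAB2 differed by 0.34 and 0.54 with CAPE, MAPK3, the gene of the kinase ERK1, by 0.46 and 0.30, and ARAF by 0.35 and 0.24. PIK3R1, the regulatory subunit of PI3K, had a mean line difference of -0.67 (limma adjusted p = 0.0923). The list medians were 0.01 for CAPE and 0.01 for the line, and those of all genes 0.01 and 0.00.

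The inhibitors of the receptors and of ERK signalling held 22 tested genes, with 0 passing for CAPE. ERRFI1, which binds and inhibits EGFR and ERBB2, stood at 7.24 in HK1 with DMSO, 8.50 in HK1 with CAPE, 6.40 in HK1EBV with DMSO and 7.45 in HK1EBV with CAPE. It was thus higher with CAPE by 1.26 and 1.05, at a mean of 1.16 (limma adjusted p = 0.0672, or 0.000932 without the genes of zero residual). CBLB, a ubiquitin ligase of the receptors, differed by 0.57 and 0.67, DUSP4, an ERK phosphatase, by -0.43 and -0.87, and NF1, a RAS inhibitor, by -0.83 and -0.34. Without the genes of zero residual these 3 passed too, so that 2 genes of the list were higher and 2 lower with CAPE. The limma adjusted p was 0.0161 for CBLB, 0.0212 for DUSP4 and 0.0351 for NF1. NF1 passed in this setting alone, and with its probe sets averaged its mean CAPE change was -0.49 in place of -0.59. In HK1EBV 5 of the 22 were lower and 0 higher (limma adjusted p under 0.05), against 1.58% of all genes lower. They were SPRY4, DUSP6, ERRFI1, SPRED1 and SPRY2, with mean differences of -0.99, -0.97, -0.94, -0.79 and -0.77. The call of SPRY2 ended under the trended variance prior (limma adjusted p = 0.0506). Without the genes of zero residual 8 were lower, against 5.34% of all genes, and 2 higher, LRIG1 and LRIG3, against 6.26%. SPRED1, SPRY2, LRIG1 and LRIG3 were named after their values were seen. The median line difference of the list was -0.05.

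Among 19 tested transcripts induced by receptor and ERK signalling, 0 passed for CAPE. In HK1EBV 0 were higher, against 1.32% of all genes, and 5 were lower, against 1.58%. These were PLAU, the gene of urokinase, at a mean of -1.39, the ETS factor ETV5 at -1.33, the AP-1 subunits JUN at -1.08 and FOSL1 at -0.94, and the cytokine gene LIF at -0.94 with DMSO and -1.07 with CAPE, named after its values were seen. The AP-1 subunit genes FOS, FOSB and JUNB had mean line differences of -0.01, 0.35 and 0.28 and passed in neither setting. They too were named after their values were seen. The median line difference of the list was -0.44, against 0.00 for all genes. With CAPE these genes went apart. PLAU differed by 1.07 and 0.78 and JUN by 0.45 and 0.67, whereas FOSL1 differed by -0.62 and -0.83, and KLF6 by 1.12 in HK1 and -0.05 in HK1EBV. Without the genes of zero residual PLAU and JUN passed as higher and FOSL1 and LIF as lower with CAPE. Their limma adjusted p was 0.00310 for PLAU, 0.0278 for JUN, 0.00937 for FOSL1 and 0.0420 for LIF. For CAPE, LIF passed in this setting alone. In that setting 7 of the list were lower in HK1EBV, against 5.34% of all genes. The median CAPE change of the list was 0.15.

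Of 17 tested genes of receptor endocytosis and sorting, 0 passed for CAPE and 1 was higher in HK1EBV, EEA1, the tether of early endosomes, by a mean of 0.73 (limma adjusted p = 0.0495). This call ended under the trended variance prior (limma adjusted p = 0.0528). EEA1 differed by -0.55 and -0.62 with CAPE, and without the genes of zero residual it was the 1 gene of the list that passed for CAPE, while 2 were higher and 1 lower in HK1EBV. STAM2, HGS and SNX1, which sort receptors at the endosome, differed by 0.29 and 0.72, by 0.52 and 0.33, and by 0.43 and 0.26. AP2A1, a clathrin adaptor subunit, had a mean line difference of 0.53 (limma adjusted p = 0.107).

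**Figure D4:**
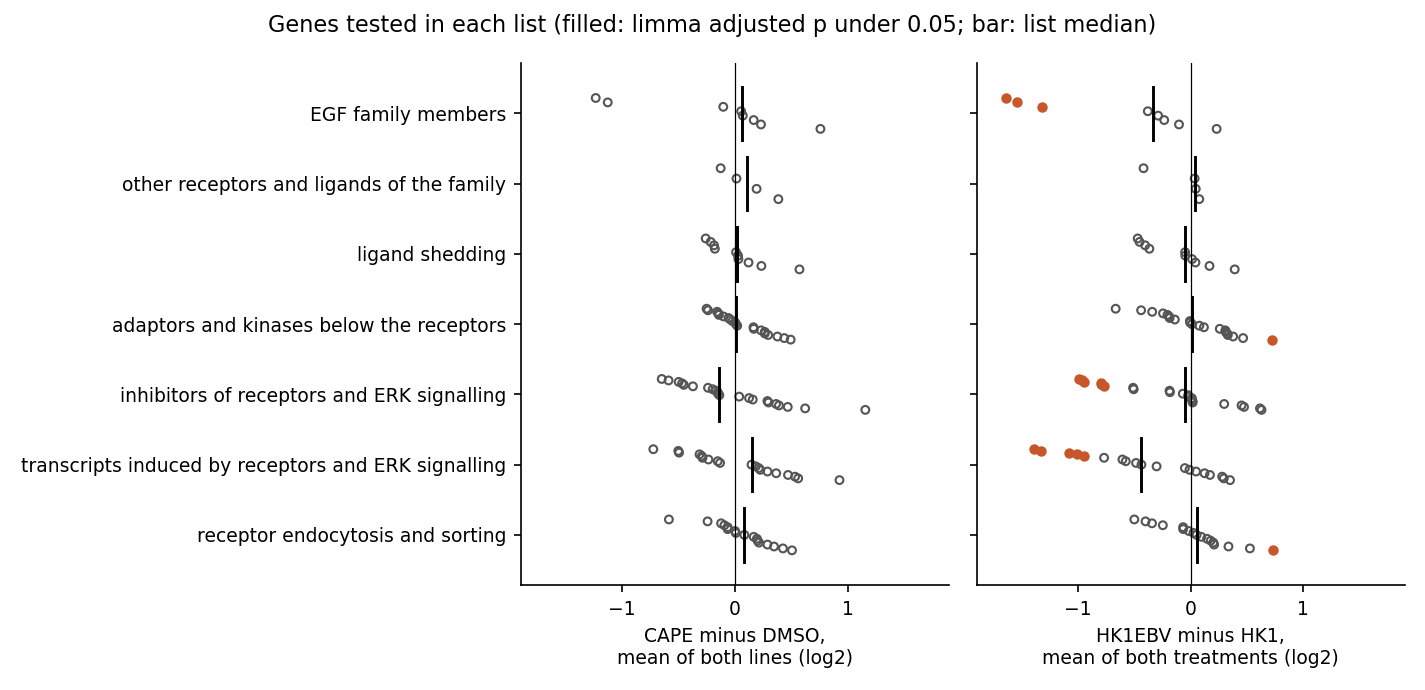
Mean CAPE change (left, log2) and mean difference between HK1EBV and HK1 (right, log2) of each tested gene, by list (rows). Filled points passed limma at an adjusted p under 0.05 and bars are list medians: none is filled for CAPE, and on the right 3 EGF family members, 5 inhibitors and 5 induced transcripts are filled below 0, and GAB1 and EEA1 above it.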

How the data were processed

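Per the labels' protocols, 250 ng of total RNA gave biotinylated cDNA (Affymetrix WT PLUS kit). Per the submitters' processing notes the authors used RMA, that is, background correction, quantile normalization and a summary per probe set. The deposited values were read as log2, the usual scale of RMA output; base, shift, version and genome build are not given in the sources used. The annotation gave 1 symbol to 18612 of 25800 probe sets, several to 954 and none to 6234; 18583 matched RefSeq by Entrez number. Genes were read from their probe set of highest mean; each of the 9 genes of the family had 1. Tested were genes with a mean of at least 0.997, the 25th percentile over probe sets. Levels of different probe sets were not compared, except that those of the cell type markers were summed over genes and given as ranges.

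limma 3.58.1 in R 4.3.3 (lmFit, eBayes) was fitted over the 4 arrays on 2 terms, the line and CAPE, which left 1 residual degree of freedom; p-values are two-sided and adjusted after Benjamini and Hochberg over the tested genes, with a threshold of 0.05. The script was tested on simulated data, which held no genes of zero residual. That test therefore does not bear on calls that depend on such genes. Differences between 2 arrays had no test and were counted at 2-fold. A percentile is a gene's rank among the genes tested. Named were the 10 genes of the family, up to 4 genes of each related list by the size of the CAPE change and up to 2 by that of the line difference, and 3 genes most like each of the 2 members of widest range. Members and lists were chosen with earlier results of these data known. Alternatives were no filter or one at the 50th percentile, a shift of each array to a common median, a further quantile normalization, averaged probe sets, a trended or robust variance prior, no zero-residual genes, no term for the other factor, an adjusted p under 0.1 and a fold of 1.5. Promoters were credited to RefSeq, GRCh38.p14.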

Additional observations from a re-analysis of the deposited data

Results flagged for a closer look

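With 1 array for each line and treatment, a gene was set apart when its CAPE change had opposite signs in the lines, or its line difference opposite signs under the treatments. Only the members and the genes named by the rule for the related lists were looked at. Of all 93 tested genes of those lists, 38 had opposite signs in at least 1 of the 2 views. The share over all genes tested was not counted, so opposite signs are given here as description only. None of these differences could be tested, and no explanation was weighed. Each value below is the CAPE change in HK1EBV minus that in HK1 (log2). Among the members, EGFR had -0.32 and TGFA -0.61. Of other ligand genes, NRG4 had -0.91, with opposite signs in both views, and NRG3 -0.35, likewise. ERBB4, at 0.21, and GAB2, at 0.20, changed sign between treatments, as did ARAF at -0.12, DUSP4 at -0.43 and NF1 at 0.49. KLF6, which had opposite signs in both views, stood at -1.18, past 2-fold, as did 0.428% of all genes in this direction. The others were smaller than 0.63, the 95th percentile of the size of this difference over all genes; NRG4 and KLF6 were not.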

How the results depend on the processing

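No array could be left out with a test remaining, since each group had 1. The labels give no replicate numbers; the CAPE fit, with the line as a term, compares treatments within lines, and without that term the adjusted p was 0.437 for EREG. Genes called for CAPE numbered 1, and 0 without the filter, 894 with the filter at the 50th percentile, 1006 with arrays shifted to one median, 755 with quantile normalization, 7 with a trended and 379 with a robust prior, 1243 without genes of zero residual, 0 without the line as a term and 544 at an adjusted p under 0.1. The members called for CAPE numbered 3 instead of 0 (EREG, HBEGF and NRG1) with the filter at the 50th percentile, with arrays shifted, with quantile normalization, with the robust prior, without genes of zero residual and at an adjusted p under 0.1. For the line, 440 genes became 0 without the filter, 1296 with the filter at the 50th percentile, 1526 with arrays shifted, 1324 with quantile normalization, 959 with the robust prior, 1756 without genes of zero residual, 0 without the treatment as a term and 1390 at an adjusted p under 0.1. The members called for the line were 0 in place of 3 without the filter and without the treatment as a term. At a fold of 1.5 in place of 2, 1089 genes in place of 206 were apart between the HK1 arrays, 1145 in place of 186 between the HK1EBV arrays, 1271 in place of 284 between the DMSO arrays and 1539 in place of 312 between the CAPE arrays. The line difference of GAB2 changed sign to 0.013 with arrays shifted and 0.0035 with quantile normalization, and that of ARAF to 0.010 with arrays shifted. The trended prior also ended the line calls of GAB1, EEA1 and SPRY2. Members changed sign under 0 alternatives. The cause of each shift was not tested.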
